A study of Mus musculus with 2 samples.

Results

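Alveolar type 1 (AT1) cells were described through 8 genes, Ager, Hopx, Rtkn2, Aqp5, Pdpn, Akap5, Cav1 and Clic5, which were taken by name as an established set of AT1 marker genes. All 8 were present among the 27999 genes listed in each matrix. Their levels were measured by droplet-based single-cell RNA sequencing of dissociated whole lungs from female FVB/NJ mice that were 10 weeks old when they received Met-1 cells (a line derived from a mouse mammary carcinoma) by tail vein. One library came from a lung collected at week 1, labelled low metastatic burden, and one from a lung collected at week 3, labelled high metastatic burden. Both mice had received tumour cells, there was no library from an uninjected mouse, and each burden was represented by 1 mouse and 1 library, so burden, week, mouse and library cannot be told apart and no difference between burdens has a replicate check.

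AT1 cells are the flat, very thin cells that cover most of the alveolar surface and, with the capillary endothelium beneath them, form the barrier for gas exchange. Alveolar type 2 (AT2) cells are cuboidal, make surfactant and act as the progenitors from which AT1 cells are renewed. Of the 8 genes, Ager encodes the receptor RAGE, which AT1 cells carry on their basal side. Aqp5 encodes an apical water channel, Pdpn a mucin-like membrane glycoprotein, Cav1 the coat protein of caveolae, and Clic5 a chloride intracellular channel protein associated with the actin cortex. Akap5 encodes an anchoring protein for protein kinase A and Hopx a small homeodomain protein that does not bind DNA.

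In GENCODE M21, on the mouse build GRCm38 (the assembly of mm10), Ager lies on the plus strand of chromosome 17 from 34597862 to 34600936 and Clic5 on the same strand and chromosome from 44188584 to 44280172. Hopx is on the minus strand of chromosome 5 from 77086988 to 77115121 and Pdpn on the minus strand of chromosome 4 from 143267431 to 143299564. Rtkn2 (chromosome 10, 67979570 to 68059740), Aqp5 (chromosome 15, 99590782 to 99594829), Akap5 (chromosome 12, 76324891 to 76334153) and Cav1 (chromosome 6, 17306335 to 17341452) are on the plus strand. An annotated antisense gene overlaps an exon of Hopx, Rtkn2 and Cav1, and the other 5 genes overlap no annotated gene.

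Promoters were read from RefSeq (GRCm38.p6) as the 250 bases before each transcription start, which gave 9 promoters for 7 of the 8 genes. Of these, 3 are shown, for Ager because most AT2-like cells held it too, for Akap5 because it differed most between the libraries, and for Cav1 because it was shared with the endothelium. They are the plus strand of chr17:34597600-34597849, chr12:76324641-76324890 and chr6:17306085-17306334, with the GC box (GGGCGG) and the TATA box (TATAAA) in capitals on either strand.
Ager: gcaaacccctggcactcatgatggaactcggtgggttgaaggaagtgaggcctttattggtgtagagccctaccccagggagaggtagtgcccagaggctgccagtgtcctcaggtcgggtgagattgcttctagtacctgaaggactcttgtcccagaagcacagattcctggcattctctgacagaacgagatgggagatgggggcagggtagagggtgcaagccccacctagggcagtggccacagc
Akap5: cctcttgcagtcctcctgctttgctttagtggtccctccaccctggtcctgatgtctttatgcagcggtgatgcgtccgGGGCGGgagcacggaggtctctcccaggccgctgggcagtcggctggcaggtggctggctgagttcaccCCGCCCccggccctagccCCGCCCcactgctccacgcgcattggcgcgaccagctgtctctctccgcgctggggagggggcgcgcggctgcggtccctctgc
Cav1: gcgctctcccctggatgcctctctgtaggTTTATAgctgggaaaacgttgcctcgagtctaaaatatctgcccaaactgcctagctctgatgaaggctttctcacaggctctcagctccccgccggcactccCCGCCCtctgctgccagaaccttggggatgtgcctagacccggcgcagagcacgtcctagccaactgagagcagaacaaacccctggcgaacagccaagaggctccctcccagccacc
A GC box occurred in 4 of the 9 promoters, 3 times in the Akap5 promoter and not in the Ager promoter, against 32.7% of the 32851 promoters of the same length in the table. A TATA box letter match occurred in 1 of the 9, on the minus strand of the Cav1 promoter, against 12.4% of all promoters. Neither GGAATG, the core letters bound by TEAD factors, nor CACTTG, letters bound by NKX2-1, occurred in any of the 9 on either strand, while 12.6% and 11.6% of all promoters held them.

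Limits of 1000 to 7000 detected genes and 10% mitochondrial counts per cell left 2473 of 2668 low-burden and 3033 of 3121 high-burden cells. The depth differed between the libraries, with a median of 4073 unique molecular identifiers (UMIs, counts of individual captured RNA molecules) per kept cell at low burden and 13998 at high burden. The libraries shared 11 cell barcodes. No cell annotation was used here, so classes were rebuilt from lists of marker genes that held none of the 8 members, and each class is named only as resembling a cell type. Scrublet, a doublet caller, marked 0.364% and 0.231% of cells, a yield too low to count as a working doublet call, so doublets were handled only by leaving out the cells that passed the marker gates of more than 1 class.

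An AT1-like cell had to be positive for at least 10 of 22 AT1 markers that are not members, among them Igfbp2, Col4a3 and Cldn18. This cut was passed by 47 low-burden and 15 high-burden cells, of which 9 and 2 also passed another gate and were left out. What remained were 38 AT1-like cells at low burden and 13 at high burden, or 17.1% (95% exact binomial interval 12.4 to 22.7) of 222 epithelial cells at low burden and 13.1% (7.18 to 21.4) of 99 at high burden. The 2 intervals overlapped. Dissociation sets which cells are recovered, and these shares are shares of captured cells. Near the cut, 8 low-burden and 2 high-burden cells were positive for 7 to 9 markers, and 7 and 2 for 10 to 12. The members, which had no part in the gate, picked nearly the same cells: taking cells by at least 4 of the other 7 members gave 38 to 40 low-burden and 12 or 13 high-burden cells, and 38 of the former and all of the latter were in the gated class.

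All 8 members were detected together in single AT1-like cells. Every one of the 38 low-burden and 13 high-burden cells held at least 1 Ager UMI and at least 1 Clic5 UMI, and 30 low-burden and 10 high-burden cells held all 8 members. When every cell was thinned to 2000 UMIs, so that depth no longer differed, AT1-like cells held a median of 7 members at low burden and 6 at high burden. AT2-like cells then held 2 and 1, aerocyte-like endothelial cells 3 and 2, and B cells, which should lack epithelial genes, 0 and 0. At least 6 members were detected in 37 of 38 and 10 of 13 AT1-like cells. No AT2-like, aerocyte-like or B cell reached 6 members, and in the general capillary-like class 1 of 338 low-burden cells did.

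**Figure D1:**
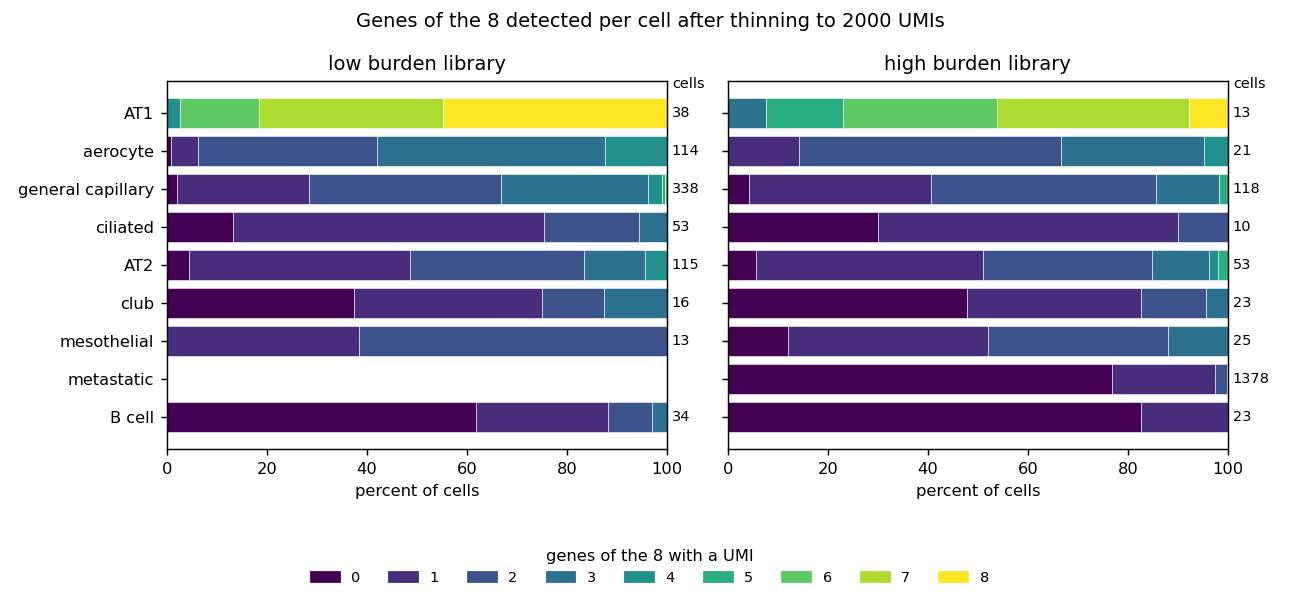
Share of cells (horizontal axis, percent) in each marker-gated class (vertical axis) by the number of the 8 genes with at least 1 UMI after each cell was thinned to 2000 UMIs, with the number of cells at the right of each bar. AT1-like cells held a median of 7 and 6 genes at low and high burden, while aerocyte-like cells held 3 and 2 and AT2-like cells 2 and 1.

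The members were first compared with AT2-like cells within each library, since AT2 cells are the lineage neighbours of AT1 cells. The level of a gene in a class is its UMI sum over the cells of the class, scaled to a class total of 1000000 UMIs (CPM), with a 95% exact Poisson interval that covers counting error only. Ager stood at 29410.4 CPM (28620 to 30217) in low-burden AT1-like cells and at 1384 CPM (1296 to 1475) in AT2-like cells. At high burden it stood at 20662 CPM (19817 to 21534) in AT1-like and 1508 CPM (1393 to 1630) in AT2-like cells. Ager was therefore measured in AT2-like cells at a level 21.3-fold (low burden) and 13.7-fold (high burden) below AT1-like cells, yet far above the B-cell level of 68.9 and 47.6 CPM. After thinning, 89.6% of low-burden and 86.8% of high-burden AT2-like cells still held an Ager UMI, against 11.8% and 13.04% of B cells, whose median depth was 3530 and 6110 UMIs against 5685 and 6573 in AT2-like cells.

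Aqp5 was also above background in AT2-like cells. At low burden it stood at 2262 CPM (2047 to 2494) in AT1-like and 323 CPM (282 to 369) in AT2-like cells. In the high-burden library these levels were 1855 CPM (1608 to 2129) and 296 CPM (247 to 353). The log2 ratio of AT1-like over AT2-like cells was 2.81 and 2.65, the narrowest gap of the 8 members in both libraries. After thinning, 37.4% and 43.4% of AT2-like cells held an Aqp5 UMI, against 2.94% of low-burden B cells and 0 of 23 high-burden B cells, where a floor of 3 cells would be a share of 13.04%. Club-like cells, secretory cells of the airways, followed at 136 and 135 CPM.

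At low burden the gap to AT2-like cells was wider for Akap5, Pdpn, Rtkn2 and Hopx than for Ager. Low levels of Clic5 were measured in AT2-like cells, 51.9 CPM (36.2 to 72.2) and 40.3 CPM (23.5 to 64.5), against 26.3 CPM (21.6 to 31.7) and 7.44 CPM (5.89 to 9.27) in immune-like cells, and at high burden of Hopx, 71.1 CPM (48.0 to 102) against 18.6 CPM (16.1 to 21.4). Only 10 of 53 high-burden AT2-like cells held a Hopx UMI, and 53.3% of these UMIs lay in 1 cell. The intervals of both genes overlapped those of B cells, where Hopx stood at 27.2 CPM (7.41 to 69.7) at high burden. At low burden the log2 ratio of AT1-like over AT2-like cells was 7.15 (95% exact interval 5.57 to 9.45) for Akap5, 6.84 (5.83 to 8.06) for Pdpn, 6.80 (5.73 to 8.14) for Rtkn2 and 6.28 (5.92 to 6.68) for Hopx. Clic5 followed with 4.50 (3.98 to 5.06) and Cav1 with 4.10 (3.68 to 4.54), against 4.41 (4.31 to 4.51) for Ager and 2.81 (2.57 to 3.05) for Aqp5. In AT2-like cells Akap5 gave 3 UMIs, Rtkn2 7 and Pdpn 8 over 115 low-burden cells, so that these 3 were at or near the level of B cells. At high burden Pdpn gave 11 UMIs over 53 AT2-like cells, 63.6% of them in 1 cell. All 8 members were at least 2-fold higher in AT1-like cells, as were 31.7% of the 1956 genes with at least 50 UMIs in both classes together and detection in 10% of the cells of either. The median of the 8 ratios was 5.39, against 0.57 over those 1956 genes. Akap5, Rtkn2, Pdpn and Clic5 reached 50 UMIs only through AT1-like cells, so the filter itself fixed their direction and the count is a description.

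At high burden the ratios of all 8 members were lower, and Akap5 no longer led the order. In this library 4 AT1-like cells, positive for only 10 to 13 gate markers, held 49.1% of the class UMIs. Ager stood at 8607 CPM in them and at 32280 CPM in the other 9. The log2 ratio was 6.24 (4.83 to 8.15) for Rtkn2, 5.31 (4.77 to 5.90) for Hopx, 5.18 (4.28 to 6.23) for Pdpn and 4.46 (2.67 to 6.87) for Akap5, which rested on 17 and 3 UMIs and did not pass the filter on low counts. All 7 members past the filter were at least 2-fold higher in AT1-like cells, against 22.1% of 1233 genes, but of these only Ager and Aqp5 had 50 UMIs in AT2-like cells alone. The median over all 8 was 4.35, and it was 6.32 at low burden when the level in B cells was first subtracted.

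**Figure D2:**
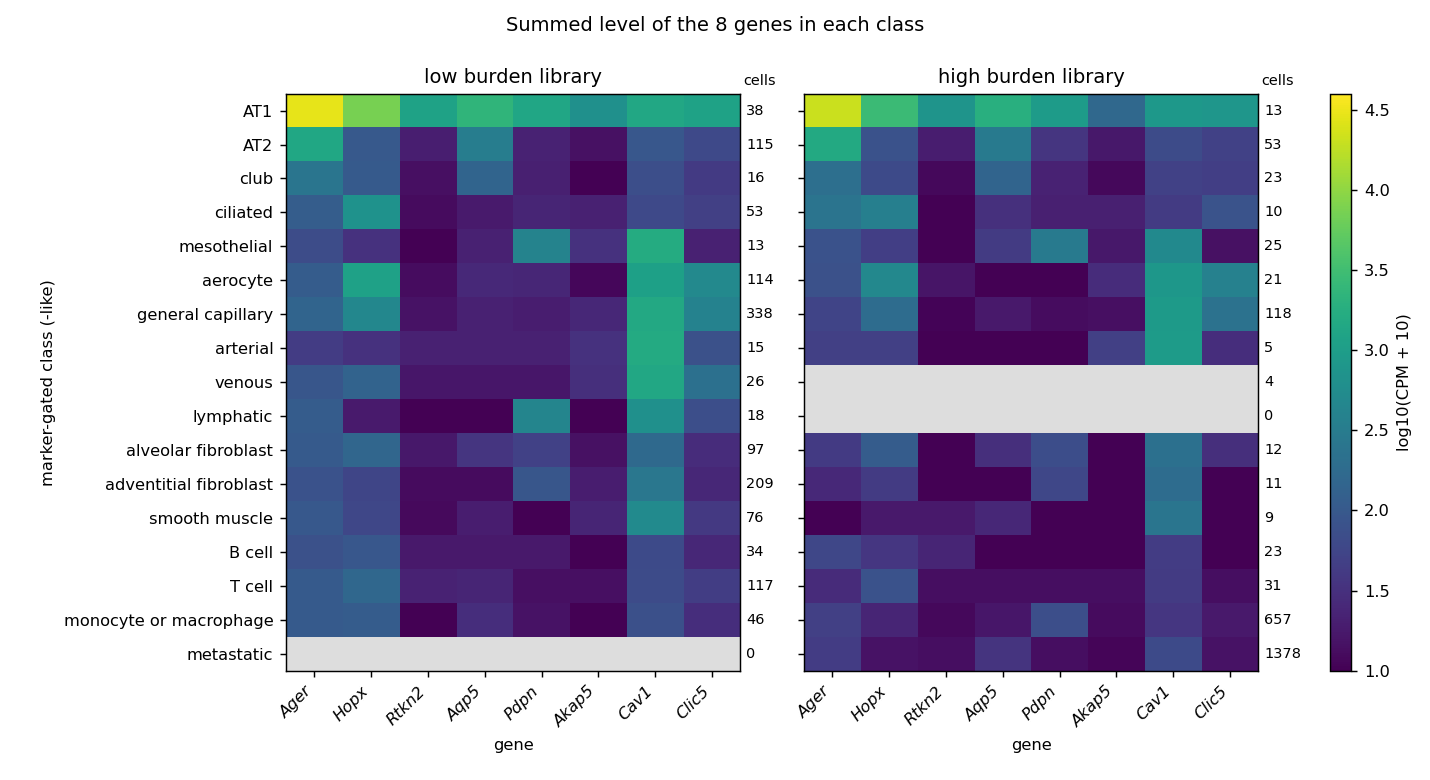
Summed level of each of the 8 genes (horizontal axis) in each marker-gated class (vertical axis) as log10(CPM + 10), in the low-burden (left) and high-burden (right) library, with the number of cells beside each row and classes of under 5 cells in grey. The AT1-like row is the brightest for every gene except Cav1, which is about as bright in general capillary-like and arterial-like cells, Ager and Aqp5 continue into AT2-like and club-like cells, and Hopx into aerocyte-like and ciliated-like cells.

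Other genes of the same pathways were then read in AT1-like over AT2-like cells at low burden, where the share of all genes at least 2-fold higher was the 31.7% given above. Of the 7 genes listed with Cav1 in the caveolar coat and neck, 5 passed the filter and all 5 were at least 2-fold higher in AT1-like cells, with a median log2 ratio of 3.69. Ehd2 was at 4.09 (3.34 to 4.91), Prkcdbp at 3.92 (3.05 to 4.88), Sdpr at 3.69 (3.24 to 4.17), Cav2, the partner of Cav1, at 3.63 (3.15 to 4.13) and Ptrf at 2.44 (1.94 to 2.96). Of 12 regulators of AT1 cells and targets of the YAP/TAZ pathway, 6 passed and 5 were at least 2-fold higher. These were the YAP/TAZ targets Ctgf (3.80), Cyr61 (3.58) and Amotl2 (1.62), the transcription factor Tead1 (3.24) and Gata6 (1.59), while Nkx2-1, the lung lineage factor of both cell types, was at 0.90 (0.47 to 1.31).

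Among genes tied to AKAP5, Ppp3ca, a catalytic subunit of calcineurin, was at 2.70 (2.22 to 3.20). Of 7 binding partners of podoplanin 5 passed, of which Msn (2.87) and Cd9 (1.53) were at least 2-fold higher and Cd44 (-1.70) at least 2-fold lower in AT1-like cells. Of the 9 other aquaporins, Aqp1 alone passed, at 0.75 (0.11 to 1.36). Of the 4 other chloride intracellular channel genes 3 passed, with Clic3, itself a gate marker, at 3.28, Clic4 at -0.08 (-0.97 to 0.72) and Clic1 at -1.95 (-3.11 to -0.98). Of 5 genes for RAGE ligands and its effector, Hmgb1 (0.23, -0.12 to 0.57) and Diaph1 (0.63, -0.25 to 1.45) passed, and neither was separated from 0. Of 9 genes reported for cells passing from AT2 to AT1, 5 passed and 4 were at least 2-fold higher, namely Krt19 (4.22), Hbegf (3.78), Lgals3 (2.25) and Krt8 (1.80). Krt19 and Hbegf reached the UMI cut only through AT1-like cells, so their part in this count is a description.

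Endothelial and stromal cells were examined next, because several AT1 markers are not restricted to the epithelium. There were 542 and 164 endothelial-like and 451 and 72 stromal-like cells at low and high burden. At low burden 7 of the 8 members were at least 2-fold lower in endothelial-like than in AT1-like cells, against 11.1% of 6962 genes, and at high burden 6 of the 7 past the filter, against 7.52% of 5266. Rtkn2, Aqp5 and Pdpn passed only through AT1-like cells in both libraries, and so did Akap5 at low burden. The filter itself fixed their direction, so these counts are descriptions. The exception was Cav1, with a log2 ratio of endothelial-like over AT1-like cells of -0.09 (-0.27 to 0.09) and 0.09 (-0.22 to 0.41). Cav1 was as high in most blood endothelial classes as in AT1-like cells. At low burden it stood at 1450.1 CPM (1279 to 1638) in AT1-like cells, 1480.0 CPM (1430 to 1531) in general capillary-like, 1586 CPM (1336 to 1869) in arterial-like, 1453 CPM (1265 to 1660) in venous-like and 1607 CPM (1351 to 1898) in mesothelial-like cells, and none of these neighbours in the order differed beyond their counting intervals. Aerocyte-like cells came next at 1084 CPM (1004 to 1169), below AT1-like cells beyond the intervals. At high burden AT1-like cells stood at 808 CPM (648 to 996), between general capillary-like (897 CPM, 846 to 951) and aerocyte-like cells (799 CPM, 667 to 950). Endothelial-like cells gave 66.8% of all Cav1 UMIs of the low-burden library and 33.0% of the high-burden library, and AT1-like cells 3.73% and 1.90%.

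Hopx and Clic5 followed AT1-like cells with the capillary endothelium. Hopx stood at 7166 CPM (6779 to 7570) in low-burden AT1-like cells, 1142 CPM (1060 to 1229) in aerocyte-like, 682 CPM (599 to 772) in ciliated-like and 447 CPM (420 to 475) in general capillary-like cells. At high burden the same 4 classes stood at 2819 CPM (2513 to 3153), 471 CPM (371 to 589), 348 CPM (239 to 488) and 177 CPM (155 to 202), and the aerocyte-like and ciliated-like intervals overlapped. Aerocytes are the large capillary cells that share a basement membrane with AT1 cells. Hopx was higher in aerocyte-like than in general capillary-like cells in both libraries, with a log2 ratio of 1.35 (1.21 to 1.49) at low burden, where 2.15% of 6655 genes were at least 2-fold higher, and 1.41 (1.02 to 1.79) at high burden, where 2.12% of 4437 genes were. After thinning, 86.0% and 85.7% of aerocyte-like cells held a Hopx UMI, against 46.2% and 32.2% of general capillary-like cells and 23.5% and 4.35% of B cells.

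Clic5 stood at 1176 CPM (1022 to 1346) in low-burden AT1-like cells, 477 CPM (425 to 535) in aerocyte-like and 389 CPM (364 to 416) in general capillary-like cells. At high burden the values were 762 CPM (607 to 945), 378 CPM (289 to 485) and 215 CPM (190.0 to 241). The aerocyte-like over general capillary-like log2 ratio was 0.30 (0.10 to 0.49) in the low-burden library and 0.82 (0.39 to 1.22) in the other. Cav1 ran the other way, with -0.45 (-0.57 to -0.33) and -0.17 (-0.44 to 0.10), so at high burden its interval included 0. In stromal-like cells Clic5 stood at 20.1 and 3.66 CPM, within the interval of B cells, in which it gave 15.3 CPM at low burden and 0 UMIs at high burden. Cav1 was above that level in smooth muscle-like cells (511 CPM, 446 to 583, and 239 CPM, 163 to 337) and lower in alveolar fibroblast-like cells (157 CPM, 122 to 200, and 202 CPM, 124 to 312).

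Pdpn, a classical marker of lymphatic endothelium and mesothelium as well as of AT1 cells, was found in those classes. It stood at 1355 CPM (1190 to 1537) in low-burden AT1-like cells, 428 CPM (322 to 559) in 18 lymphatic-like cells and 393 CPM (272 to 549) in 13 mesothelial-like cells, and the intervals of the lymphatic-like and mesothelial-like cells overlapped. At high burden AT1-like cells stood at 946 CPM (772 to 1147) and 25 mesothelial-like cells at 284 CPM (236 to 339), and no lymphatic-like cell was captured. In blood capillaries Pdpn was near background, with 9.25 and 3.11 CPM in general capillary-like cells. Adventitial fibroblast-like cells stood at 81.2 CPM (64.9 to 100.3) at low burden, while smooth muscle-like cells gave no UMI in 76 low-burden and 9 high-burden cells, with exact upper limits of 8.52 and 27.5 CPM.

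Rtkn2 and Akap5 were the members without a second class. Rtkn2 stood at 1159 CPM (1006 to 1328) and 716 CPM (566 to 894) in AT1-like cells and at 5.28 and 1.69 CPM in endothelial-like and 5.81 and 3.66 CPM in stromal-like cells. Akap5 stood at 633 CPM (521 to 761) and 156 CPM (90.9 to 249.96) in AT1-like cells and at 13.2 and 7.31 CPM in endothelial-like and 9.83 and 3.66 CPM in stromal-like cells. At high burden the Akap5 interval of AT1-like cells overlapped that of 5 arterial-like cells, which held 2 UMIs. AT1-like cells, 1.54% of low-burden cells, held 64.5% of the library's Rtkn2 UMIs, 62.7% of its Ager UMIs and 44.0% of its Akap5 UMIs.

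**Figure D3:**
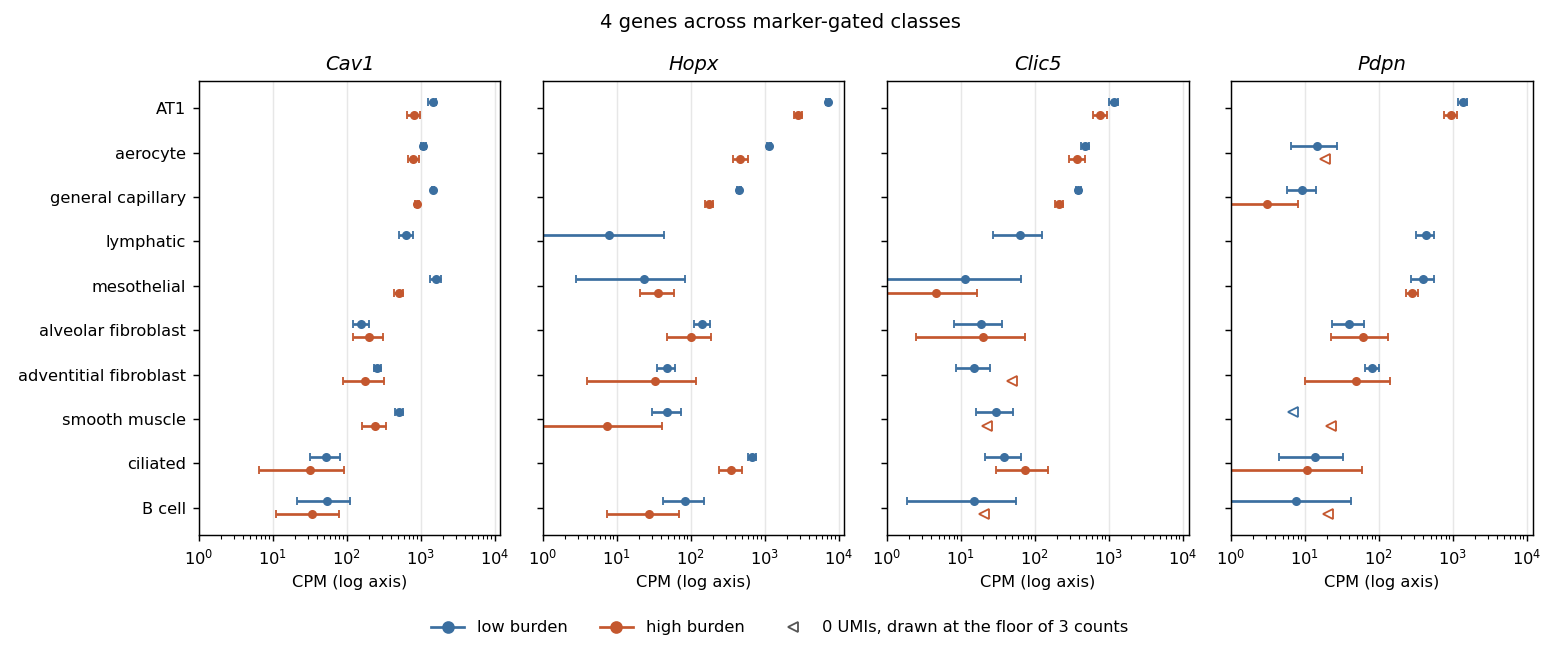
Level of Cav1, Hopx, Clic5 and Pdpn (horizontal axis, CPM on a log scale) in AT1-like, endothelial, mesothelial, stromal, ciliated and B-cell classes (vertical axis) at low (blue) and high (orange) burden, with 95% exact Poisson intervals and open triangles at the floor of 3 counts where no UMI was found. Cav1 overlaps between AT1-like and general capillary-like cells in both libraries and is lower in aerocyte-like cells at low burden (1084 CPM), Hopx and Clic5 fall from AT1-like over aerocyte-like to general capillary-like cells, and Pdpn returns in lymphatic-like (428 CPM) and mesothelial-like (393 and 284 CPM) cells.

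The pattern of each member over classes was compared with that of every other gene, as the Pearson correlation of log2(CPM + 10) over the 23 class-by-library sums of at least 20 cells, among 11336 genes with at least 200 UMIs. Points of 1 library share its depth and free RNA, so these values are descriptions. Only 1 of the 23 points is AT1-like, at low burden, since the high-burden class had too few cells. Rtkn2 and Akap5 were low in the other points, so their correlations rest largely on that 1 point. Ager was most like Aqp5 (0.929), then Ndnf, Cldn18 and Scd2, and Aqp5 was in turn most like Ager, then Pkp2, Vsig2 and Matn4. Rtkn2 and Akap5 paired with each other (0.891), Rtkn2 also with 2210011C24Rik (0.926), Poc1a, Ndnf and Igfbp2, and Akap5 with Abca5 (0.920), 2210011C24Rik, Igfbp2 and Spock2. Pdpn was most like Spock2 (0.842), Col4a4, Krt7, Gpm6a and Slc39a8. Ndnf, Cldn18, Igfbp2, Spock2, Col4a4, Krt7 and Gpm6a were themselves gate markers.

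The 3 members shared with endothelium had other neighbours. Cav1 was most like Lims2 (0.940), Sdpr (0.926), Dlc1, Ptrf and Amotl2, of which Sdpr and Ptrf encode caveolar proteins. Clic5 was most like Fam174b (0.945), Arhgef26, Elovl5 and Ptprm, and Hopx like Nxf1 (0.860), Clic5 (0.846), Myl12b, Galnt18 and Ocln. Between members the correlation ranged from 0.078 for Aqp5 with Cav1 to 0.929 for Ager with Aqp5.

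The members were then compared between burdens within AT1-like cells. In the summed counts all 8 were lower at high burden, but the 13 high-burden cells were of 2 kinds. Of them, 4 were positive for only 10 to 13 of the 22 gate markers, held 7472 to 17659 UMIs each and made up 49.1% of the UMIs of the high-burden class. Ager stood at 8607 CPM in them and at 32280 CPM in the other 9 high-burden cells, against 30569 CPM in the 35 low-burden cells with at least 14 markers. Hopx, Akap5 and Cav1 were lower also in the 9 cells, at 4418, 198 and 1082 CPM against 7156, 611 and 1463 CPM in those 35.

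Over all gated cells Akap5 had a log2 ratio (high over low) of -2.02 (-2.85 to -1.28), Hopx one of -1.35 (-1.53 to -1.17), Cav1 -0.84 (-1.21 to -0.49) and Rtkn2 -0.69 (-1.09 to -0.31). It was -0.63 (-1.01 to -0.25) for Clic5, -0.52 (-0.87 to -0.18) for Pdpn, -0.51 (-0.58 to -0.44) for Ager and -0.29 (-0.54 to -0.04) for Aqp5. Thus 2 of 8 members were at least 2-fold lower, against 6.58% of the 942 genes past the filter. All 8 of 8 had an interval below 0, against 18.4%. Akap5, with 113 low-burden and 17 high-burden UMIs, reached the UMI cut of the filter only through low-burden cells. Its part in both counts is therefore a description, and without it Hopx alone was at least 2-fold lower. The median of the 8 was -0.66 and that of all 942 genes -0.04. The gate markers themselves chose the cells and give no separate check. Of the 22, 19 passed the filter and all 19 had a ratio below 0, with a median of -0.91. Several of them, such as Spock2 with 142 low-burden and 34 high-burden UMIs, reached the UMI cut only through low-burden cells. The count of gate markers is therefore a description.

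With a stricter gate of at least 14 markers, together with stricter cuts for the AT2, endothelial and stromal classes, 36 low-burden and 10 high-burden cells remained (1 more in each library than above, since the stricter cuts also decide which cells count as mixed), and the members parted. Akap5 stayed at -1.70 (-2.69 to -0.83), Hopx at -0.82 (-1.02 to -0.63) and Cav1 at -0.56 (-0.97 to -0.16). The other 5 had intervals that included 0, with Ager at -0.04 (-0.12 to 0.03), Rtkn2 at -0.10 (-0.51 to 0.31), Clic5 at -0.23 (-0.67 to 0.20), Pdpn at 0.06 (-0.30 to 0.42) and Aqp5 at 0.22 (-0.05 to 0.48), Pdpn and Aqp5 with their sign turned. The count with an interval below 0 was then 3 of 8, against 10.5% of 812 genes, and the median of the 8 was -0.16. Only 1 of 8, Akap5, was at least 2-fold lower, against 4.31%. With 108 low-burden and 12 high-burden UMIs, Akap5 again reached the UMI cut of the filter only through low-burden cells. Its part in both counts is therefore a description.

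The values of single cells, as UMIs per 10000 UMIs of the cell, showed the same division. Ager ranged from 21.1 to 580 with a median of 318 in the 38 low-burden cells and from 51.0 to 385 with a median of 309 in the 13 high-burden cells. For Aqp5 the medians were 20.1 and 23.0, for Pdpn 13.6 and 15.3 and for Rtkn2 11.1 and 11.5. The ranges overlapped for these 4 genes, with 3 high-burden cells below the lowest low-burden cell for Pdpn and none for the other 3, and 5 to 7 of the 13 high-burden cells lay below the low-burden median.

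For Hopx the low-burden cells ranged from 11.2 to 188 with a median of 66.5 and the high-burden cells from 1.34 to 79.2 with a median of 30.6. Akap5 ranged from 0 to 22.7 with a median of 6.54 at low burden and from 0 to 7.20 with a median of 1.32 at high burden, and Cav1 from 0 to 41.5 with a median of 15.4 and from 0 to 15.8 with a median of 9.42. For each of these 3 genes 12 of the 13 high-burden cells lay below the low-burden median, although the ranges overlapped. Clic5 lay between, with medians of 10.2 and 7.70 and 10 of 13 cells below. After thinning, an Akap5 UMI was found in 71.1% of low-burden and 15.4% of high-burden AT1-like cells.

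**Figure D4:**
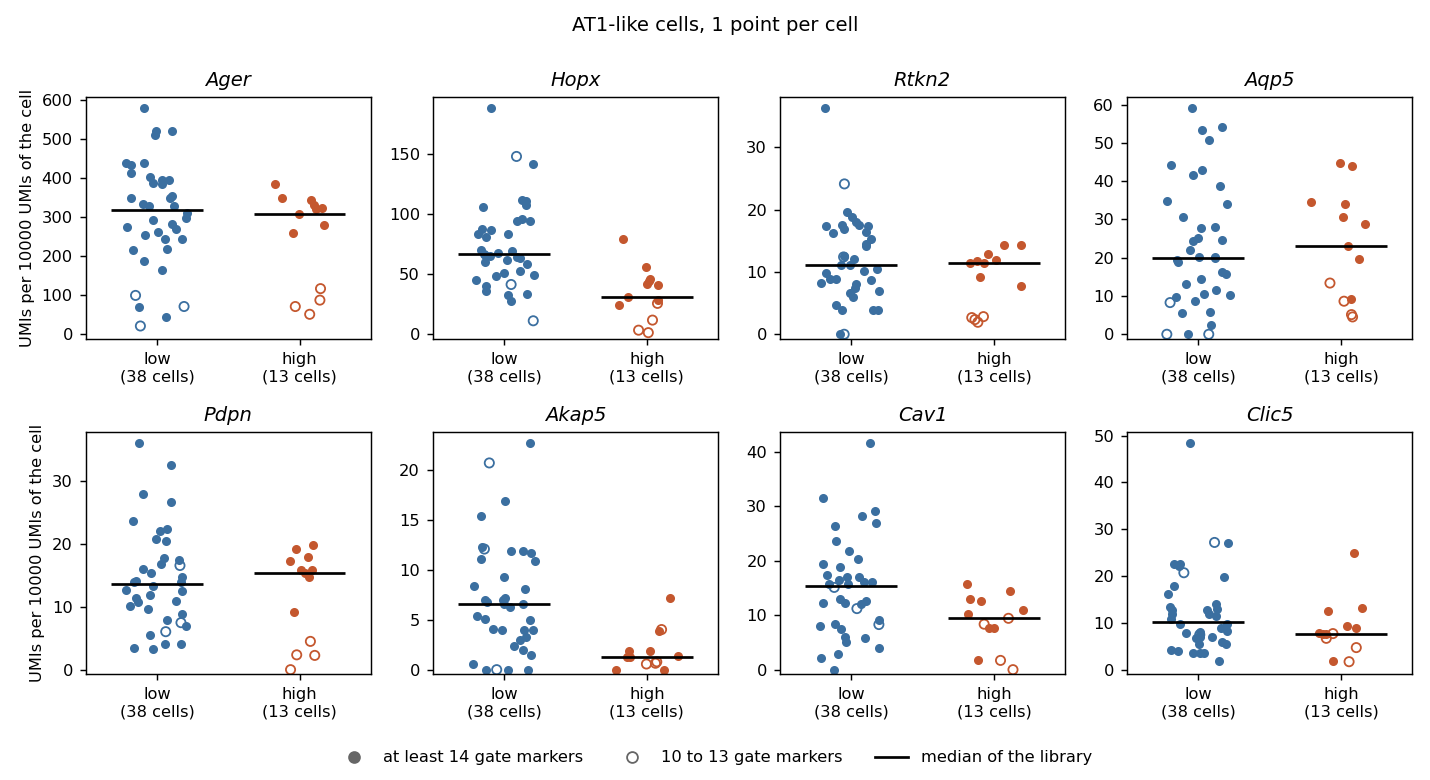
UMIs of each gene per 10000 UMIs of the cell (vertical axis) in the 38 low-burden (blue) and 13 high-burden (orange) AT1-like cells, 1 point per cell, with open circles for cells positive for 10 to 13 of the 22 gate markers and a line at the median of the library. The 4 open high-burden circles lie below every filled high-burden point for Ager, Rtkn2 and Pdpn, and the filled high-burden points lie lower than most low-burden points for Hopx (medians over all cells 66.5 and 30.6) and Akap5 (6.54 and 1.32) but not for Ager (318 and 309).

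Markers of other classes in the AT1-like cells were low but uneven. The surfactant gene Sftpc, the defining AT2 transcript, stood at 1316 CPM in the low-burden and 7025 CPM in the high-burden class. One of the 4 high-burden cells with few gate markers held 624 Sftpc UMIs, 81.6% of the class, and was positive for 6 of the 15 AT2 markers, and without it the class stood at 1390 CPM. The deepest of the 4, with 17659 UMIs, was positive for 0 AT2 and 0 endothelial markers but for 2 of the 10 metastatic markers. The other 2 were positive for 4 and 5 of the 12 endothelial markers, and the latter also for 4 of the 9 stromal markers. Low-burden cells with at least 14 gate markers also reached 5 endothelial and 4 stromal markers, and a high-burden cell with 19 gate markers 2 metastatic markers. The part of these markers in the member ratios was not tested.

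Of the pathway genes, the caveolar list was read beside Cav1 in the same comparison of burdens in AT1-like cells. All 5 caveolar genes past the filter had a ratio below 0, with a median of -0.39 against -0.04 over all 942 genes. Only 1 of 5, Cav2 at -1.03 (-1.54 to -0.55), had an interval below 0, against 18.4% of those genes. Sdpr (-0.16, -0.53 to 0.20), Ptrf (-0.43, -1.04 to 0.14), Prkcdbp (-0.39, -1.12 to 0.30) and Ehd2 (-0.04, -0.59 to 0.49) did not. All but Sdpr reached the UMI cut only through low-burden cells, so these counts are descriptions. Ppp3ca was at -0.18 (-0.68 to 0.32). Of the 5 AT1 regulators and YAP/TAZ targets past the filter, Ctgf was at -1.62 (-2.35 to -0.95), Nkx2-1 at -0.72 (-1.42 to -0.07), Cyr61 at -0.45 (-0.87 to -0.04) and Tead1 at -0.39 (-1.21 to 0.39), while Ankrd1 was at 0.90 (0.22 to 1.59). Ctgf and Nkx2-1 also reached the UMI cut only through low-burden cells, so their values are descriptions. The 5 genes of the AT2 to AT1 passage lay between -0.20 and 0.08, all with intervals that included 0. Cd9 was at -0.49 (-0.78 to -0.21), Clic3 at -0.30 (-0.58 to -0.02), Msn at -0.23 (-0.63 to 0.15), Ezr at 0.13 (-0.76 to 0.99), Hmgb1 at -0.27 (-0.80 to 0.24) and Aqp1 at -0.16 (-1.08 to 0.71). These list values were not recomputed with the stricter gate.

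In AT2-like cells the members did not part between burdens beyond counting error. Of the 5 members past the filter none was at least 2-fold lower, against 3.06% of 2158 genes, and none had an interval below 0 or above 0, against 10.9% and 17.2%. The ratio was 0.12 (-0.02 to 0.27) for Ager, -0.13 (-0.45 to 0.20) for Aqp5, -0.37 (-1.05 to 0.28) for Hopx, -0.57 (-1.32 to 0.14) for Cav1 and -0.36 (-1.29 to 0.51) for Clic5. Rtkn2, Pdpn and Akap5 did not pass.

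Endothelial-like cells carried lower Hopx, Clic5 and Cav1 at high burden. In general capillary-like cells the level of Cav1 was 1480.0 CPM in the low-burden and 897 CPM in the high-burden library, a log2 ratio of -0.72 (-0.82 to -0.63). Hopx was at -1.33 (-1.55 to -1.12), Clic5 at -0.86 (-1.06 to -0.66) and Ager, at 135 and 45.1 CPM, at -1.58 (-2.01 to -1.17). Thus 2 of the 4 members past the filter were at least 2-fold lower, against 2.09% of 7366 genes, and 4 of 4 had an interval below 0, against 14.4%. One of both counts is Ager, which lay near background here, and without it 1 of 3, Hopx, was at least 2-fold lower. The other 4 members did not pass.

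Within aerocyte-like cells, 114 at low and 21 at high burden, Hopx was at -1.28 (-1.64 to -0.94) and Cav1 at -0.44 (-0.72 to -0.17), while Clic5 (-0.34, -0.76 to 0.06) and Ager (-0.59, -1.66 to 0.35) were not separated from 0. One of these 4 was at least 2-fold lower, against 5.46% of 2730 genes, and 2 of 4 had an interval below 0, against 11.1%. Hopx and Cav1 were thus lower at high burden in AT1-like, aerocyte-like and general capillary-like cells alike, but this was not particular to these classes. Hopx was also at -0.97 (-1.54 to -0.44) in ciliated-like cells. Cav1 was at -1.10 (-1.68 to -0.56) in smooth muscle-like and -1.67 (-1.99 to -1.36) in mesothelial-like cells, but at 0.36 (-0.44 to 1.10) in alveolar fibroblast-like cells. In immune-like cells Hopx was at -2.18 (-2.44 to -1.92), from 84.4 to 18.6 CPM. Cav1 was at -1.69 (-1.92 to -1.47) there, from 91.4 to 28.2 CPM. Club-like cells gave -0.82 (-1.56 to -0.10) for Hopx. These immune-like and club-like levels lay within the B-cell intervals, so nothing is read from them. In AT2-like cells neither gene was separated from 0.

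Free RNA puts UMIs of a gene into droplets of cells that do not express it, and its level for these genes also differed between the libraries. Over all cells the low-burden library held 342 CPM of Hopx, 523 CPM of Cav1 and 631 CPM of Ager, and the high-burden library 26.2, 89.9 and 100.7 CPM. B cells stood at 84.2 and 27.2 CPM for Hopx, 53.6 and 34.0 CPM for Cav1 and 68.9 and 47.6 CPM for Ager. With the level in B cells subtracted, the ratio of high over low burden in endothelial-like cells was -1.59 for Hopx, -0.66 for Cav1 and -0.87 for Clic5, against -1.60, -0.66 and -0.93 before. The subtracted levels are loosely bounded. B cells held 11 Hopx UMIs at low and 4 at high burden, 7 and 5 of Cav1, and 2 and 0 of Clic5. Ager in general capillary-like cells lay close to its level in immune-like cells, which was 93.3 and 38.1 CPM, and no expression is read from it.

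Stromal-like cells gave a ratio of -0.79 (-1.06 to -0.52) for Cav1, at 293 CPM and 170 CPM, and 0.11 (-0.40 to 0.60) for Pdpn, at 55.4 and 59.9 CPM. Hopx (71.5 and 29.3 CPM) and Ager (84.5 and 30.5 CPM) were at the B-cell level in both libraries. These latter 2 of the 4 members past the filter were at least 2-fold lower, against 11.3% of 6478 genes. With Cav1, 3 of 4 had an interval below 0, against 22.7%. Hopx (160 low-burden and 24 high-burden UMIs) and Ager (189 and 25) reached the UMI cut of the filter only through low-burden cells. Nothing is therefore read from their part in either count. Without Hopx and Ager, Cav1 alone had an interval below 0, and no member was at least 2-fold lower. The stromal classes differed in make-up, with 209 adventitial fibroblast-like cells of 451 at low burden and 11 of 72 at high burden, and within adventitial fibroblast-like cells Cav1 was at -0.54 (-1.56 to 0.32) and within alveolar fibroblast-like cells at 0.36 (-0.44 to 1.10). In smooth muscle-like cells it was at -1.10 (-1.68 to -0.56), with 76 and 9 cells. In mesothelial-like cells Cav1 was at -1.67 (-1.99 to -1.36), from 1607 to 504 CPM, and Pdpn at -0.47 (-1.03 to 0.12), so 1 of these 2 was at least 2-fold lower, against 7.6% of 1552 genes.

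**Figure D5:**
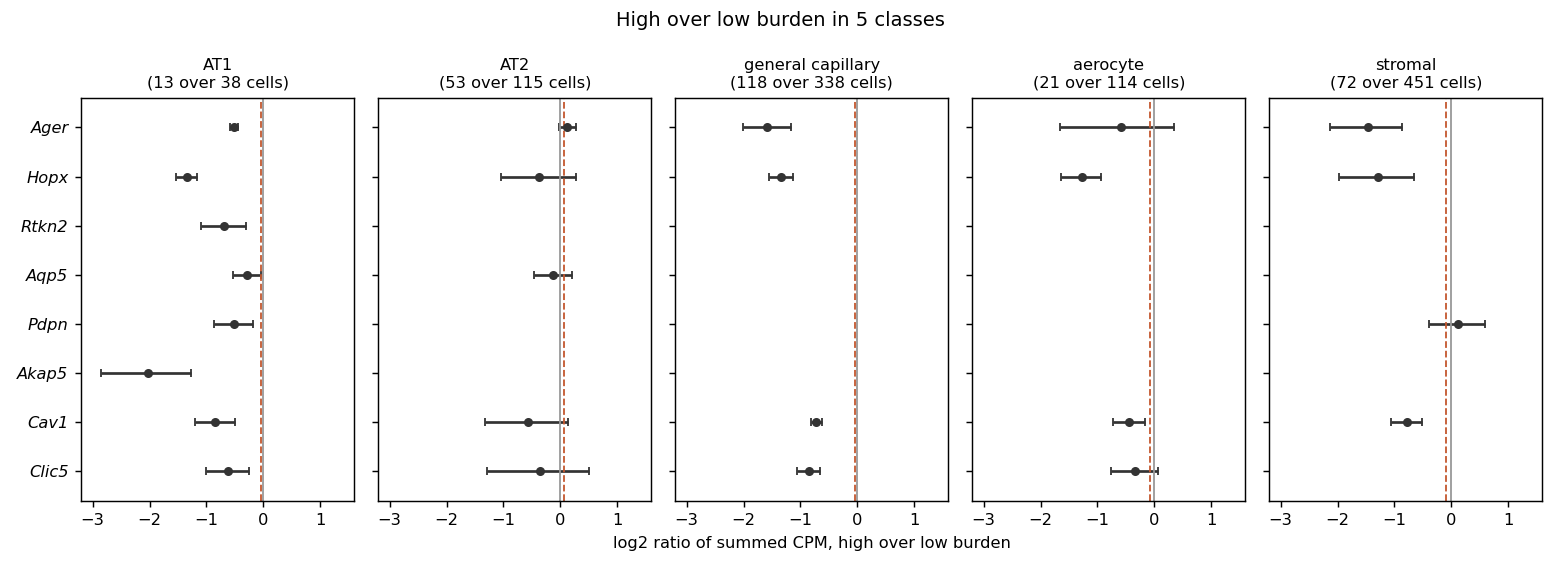
Log2 ratio of the summed CPM at high over low burden (horizontal axis) for the members past the filter on low counts (vertical axis) in 5 classes, with 95% exact intervals, a grey line at 0 and a dashed line at the median over all genes past the filter in that class. All 8 ratios lie below 0 in AT1-like cells (median -0.66), the intervals include 0 in AT2-like cells, and Hopx and Cav1 lie below 0 in general capillary-like, aerocyte-like and stromal-like cells.

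Pdpn was higher at high burden in the myeloid cells. Of the monocyte- or macrophage-like cells, 46 at low burden held 1 Pdpn UMI (4.99 CPM) and 657 at high burden held 465 (63.1 CPM, 57.5 to 69.2), a log2 ratio of 3.66 (1.18 to 8.97). In this class 16.2% of 7289 genes were at least 2-fold higher, but Pdpn, with a UMI in 2.17% of low-burden and 35.6% of high-burden cells, passed the filter only through the high-burden cells, so nothing is read from its place among them. Immune-like cells gave 50.7% of all Pdpn UMIs at high burden and 5.32% at low burden. In ciliated-like cells, 53 at low and 10 at high burden, Hopx was at -0.97 (-1.54 to -0.44), while Ager, the 1 of 2 members past the filter that was at least 2-fold higher (against 1.21% of 1567 genes), rested on 22 UMIs at high burden, of which 16 lay in 1 cell.

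Metastatic-like cells, 1378 cells with a median of 22050 UMIs, were captured at high burden only. Aqp5 stood at 24.9 CPM (23.2 to 26.6) and Cav1 at 53.9 CPM (51.5 to 56.5) in them, and the other 6 members at 1.12 to 33.8 CPM. Although these levels were low, the class held most of the library's UMIs, so it gave 56.5% of all Aqp5 UMIs, 47.7% of all Rtkn2 UMIs and 38.5% of all Cav1 UMIs of the high-burden library, while AT1-like cells gave 13.9%, 32.4% and 1.90%. No member lay above the interval of high-burden B cells, whose upper limit was 25.1 CPM for Aqp5 and 79.4 CPM for Cav1. Aqp5 and Cav1 did lie above their immune-like levels of 6.31 and 28.2 CPM. Whether metastatic-like cells express the members was not tested.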

How the data were processed

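Whole-lung cell suspensions from 1 low-burden and 1 high-burden mouse were measured by droplet-based single-cell RNA sequencing. Per the labels, reads were aligned with Cell Ranger 2.0.2 to mm10 with an added PYMT sequence, and the deposited matrices hold raw UMI counts, not normalized. Whether depth equalization between libraries preceded the deposited counts is not given in the sources used here. The 8 genes, the marker lists and the pathway lists were chosen with earlier results of these data known.

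A marker counted as positive in a cell at 1 UMI or more and at 10% or more of the mean level of its 20 highest cells. Cuts on the number of positive markers (AT1 10 of 22, AT2 7 of 15, endothelial 6 of 12, stromal 5 of 9) were set after the distributions were seen, and cells passing more than 1 gate were left out. Of 220 listed markers 4 were absent.

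UMIs were summed per class and library. With 1 library per burden no test across samples was possible and no p-value is given. Intervals (95%) were exact throughout, Poisson for a level, conditional binomial for a ratio and Clopper-Pearson for a share, and cover counting error only, and a sum of 0 was set to a floor of 3 counts. Comparisons across genes used genes with 50 UMIs or more and detection in 10% of the cells of either class. Thinning used 2000 UMIs per cell. The text names the 8 members, the pathway-list genes with 20 UMIs or more in AT1-like cells, and the 5 genes most like each member, except a few items that are not reported here. Python 3.11.15, numpy 2.4.6, scipy 1.17.1 and scanpy 1.11.5 were used. Alternatives were a stricter gate, Leiden clusters, other scalings, subtraction of free RNA, thinning and equal weighting of cells.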

Additional observations from a re-analysis of the deposited data

Results flagged for a closer look

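In ciliated-like cells the ratio of high over low burden for Ager was 1.14 on the log2 scale, opposite in sign to 7 other classes with a ratio below 0. It rested on 38 UMIs at low and 22 at high burden, and without the highest cell of each library it was -0.48 (-2.03 to 0.79). The difference between classes was not tested.

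Pdpn had a ratio of 3.66 in monocyte- or macrophage-like cells and of 2.69 in all immune-like cells, against a ratio below 0 in 1 other class. In immune-like cells the ratio without the highest cell of each library was 2.76 (2.23 to 3.33). In monocyte- or macrophage-like cells the low-burden value was a single UMI, and without the highest cells 456 UMIs stood against 0, which gives only a lower bound of 1.99. The make-up of the immune-like class differed (372 alveolar macrophage-like cells at low burden and 3 at high burden), and the difference between classes was not tested.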

How the results depend on the processing

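Of the values that answer a comparison, 80 stayed within the counting intervals under the alternatives and 21 moved. The median log2 ratio of the members in AT1-like cells at high over low burden, -0.66, was -0.16 with the stricter gate and -1.05 with Leiden clusters. Within it, 2 members turned direction. Aqp5 was at 0.22 with the stricter gate, 0.20 after thinning, 0.018 with every cell weighted equally and 0.079 with mixed AT1 cells kept, and Pdpn was at 0.063 with the stricter gate. Hopx (-1.60 to -0.82), Akap5 (-3.23 to -1.70) and Cav1 (-1.11 to -0.56) stayed below 0 in all 12 settings run. The endothelial-like median at high over low burden, -1.03, was -1.33 with Leiden clusters, -0.57 after thinning and -0.66 with equal weights. The stromal-like median, -1.04, was -0.32 with the stricter gate and -0.25 with the level in B cells subtracted. The AT1-like over AT2-like median at low burden, 5.39, was 4.86 with Leiden clusters, 4.82 with median-of-ratios scaling and 6.32 with the level in B cells subtracted, and at high burden, 4.35, it was 3.24 with Leiden clusters. The endothelial-like over stromal-like median at low burden, 2.21, was 2.02 with the stricter gate, 2.41 with Leiden clusters, 1.96 with median-of-ratios scaling, 2.37 with free RNA subtracted, 2.53 after thinning and 2.42 with equal weights. At high burden, 2.34, it was 4.18 with the level in B cells subtracted, 2.73 without the top cell of each member and 2.67 after thinning. The AT1-like share of epithelial cells at high burden was 22.4% with Leiden clusters. The causes of these shifts were not tested.

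No paired analysis was possible because each burden has 1 library. The subtraction of the level in B cells, the equal weighting and the keeping of mixed cells were chosen after seeing the data. With 38 and 13 AT1-like cells, ratios of members with few UMIs, such as Akap5 with 17 at high burden, are loosely bounded, and the intervals hold no spread between mice.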

Other observations

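Of the AT1-like cells, 5 at low burden and 3 at high burden held fewer than 100 Ager UMIs per 10000 UMIs. In the 5 low-burden cells Hopx stood at 9392 CPM against 6964 CPM in the other 33, Akap5 at 1476 against 556 CPM and Clic5 at 2147 against 1087 CPM, while Aqp5 stood at 268 against 2443 CPM. The 3 high-burden cells went the other way for the first 3 genes, with Hopx at 1565 CPM against 3433 CPM in the other 10, Akap5 at 139.7 against 164 CPM and Clic5 at 643 against 821 CPM, and Aqp5 stood at 810.4 against 2366 CPM. These cells were picked after their values were seen, and no test was made.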
